A study of Homo sapiens and Mus musculus with 24 samples.

Results

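The positions of BRG1 and of acetylated histone H3 lysine 27 (H3K27ac) were compared in wild-type (WT) mouse fetal liver at embryonic day 14.5. The comparison used 4 of the 24 samples of the series, namely the 2 BRG1 and the 2 H3K27ac chromatin immunoprecipitates from WT liver, through the peak list of each library. These lists held 162921 of the 267639 peaks in the 8 library lists of the series. Each BRG1 list was set against each H3K27ac list, which gave 4 library pairs, written below with the BRG1 library first (1-1, 1-2, 2-1 and 2-2). For every pair, overlap by at least 1 bp, the distance from each BRG1 summit to H3K27ac peaks and summits on both sides, the number of H3K27ac peaks within 2 kb, and the agreement of the authors' fold enrichment ranks were measured.

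The series asks how hemogen, a nuclear protein of blood-forming cells, and BRG1 act at promoters and enhancers during red cell formation. Besides the 4 libraries, 2 WT libraries precipitated for hemogen through an HA tag and 2 BRG1 libraries from hemogen knockout (KO) livers of the same age served as references. The labels give neither the strain, nor the allele of the KO, nor the origin of the tag. It is also not stated how many livers went into a library or whether the libraries of a group are from different animals, so every spread below is one between libraries and may be technical. Whole livers were used, so a shared position does not show that BRG1 and H3K27ac lay in the same cells.

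BRG1, encoded by Smarca4, is an ATPase of the BAF (SWI/SNF) complexes, which use the energy of ATP to slide or evict nucleosomes and open chromatin to transcription factors. H3K27ac is laid down mainly by the acetyltransferases p300 and CBP, and marks the nucleosomes that flank active promoters and enhancers. At this age most red cells are made in the liver, which also holds hepatoblasts, macrophages and megakaryocytes. The tissue label could not be checked against marker genes, since no mouse annotation was used here.

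BRG1 library 1 had 26329 peaks and library 2 had 21165, against 69882 and 45545 for H3K27ac. BRG1 peaks were wider than H3K27ac peaks, with a median width of 377 and 348 bp against 278 and 282 bp. BRG1 peaks covered 15.0 and 10.6 Mb, and H3K27ac peaks 25.9 and 16.8 Mb. The H3K27ac lists are thus long sets of short intervals, and a broad acetylated stretch can be split into several peaks. A summit height (the scaled number of fragments at the summit) and a local background could be recovered for each peak from the authors' fold and p-value. Lists with the same library number shared much of this background, as given with the ranks below.

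Somewhat more than 1 in 2 BRG1 peaks overlapped an H3K27ac peak, and the share followed the length of the H3K27ac list. Of the BRG1 library 1 peaks, 16015 (60.8%) overlapped H3K27ac library 1 and 13195 (50.1%) overlapped H3K27ac library 2. For BRG1 library 2 the numbers were 13488 (63.7%) and 12271 (58.0%). The mean was 58.2% ± 5.86 (SD over 4 pairs, which share libraries). Both BRG1 lists overlapped the longer H3K27ac list more often than the shorter one. Pairs of the same number had a mean of 59.4% and crossed pairs 56.9%, a difference of 2.48 percentage points, which was not tested.

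The reverse share was lower, on the longer H3K27ac lists. BRG1 library 1 overlapped 25.1% of the H3K27ac library 1 peaks and 32.4% of those of library 2. BRG1 library 2 overlapped 19.6% and 28.2%, so that the mean over the pairs was 26.3% ± 5.40. Most overlaps joined 1 peak to 1 peak. Among overlapping BRG1 peaks, 83.8% held a single H3K27ac peak on average, 13.4% held 2 and 2.72% held 3 or more, up to 8 under 1 BRG1 peak. Among overlapping H3K27ac peaks, 89.2% ± 1.91 held a single BRG1 peak.

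Both H3K27ac lists together gave each BRG1 peak 1 of 3 states. In BRG1 library 1, 11636 peaks (44.2%) overlapped both H3K27ac lists, 22.6% overlapped 1 list only and 8755 (33.3%) overlapped neither. In library 2 the shares were 49.8% (10538 peaks), 22.1% and 28.1% (5944 peaks). Of the peaks in neither list, 36.9% and 39.1% overlapped the authors' group list for H3K27ac, which holds 167030 peaks. A peak without overlap in a library list is therefore not shown to lack the mark.

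BRG1 peaks that both BRG1 libraries held overlapped H3K27ac more often than those of 1 library alone. In library 1, 15369 peaks (58.4%) were found in library 2 as well; their median height was 25.5, against 21.1 over the whole list. Of these, 71.8% overlapped H3K27ac library 1 and 65.5% overlapped H3K27ac library 2, against 45.4% and 28.6% of the peaks of library 1 alone. In library 2 the same shares were 70.4% and 62.3% against 35.2% and 39.4%. The difference had the same direction in 4 of 4 pairs, without regard to height. Averaged over 10 classes of BRG1 height, 59.2%, 63.5%, 85.2% and 81.6% of peaks with the summit inside an H3K27ac peak were in both BRG1 libraries (pairs 1-1, 1-2, 2-1, 2-2). With no H3K27ac peak within 1 kb of the summit, 55.1%, 52.3%, 75.1% and 78.9% were. In the pair 2-2, summits with an H3K27ac peak within 1 kb on both sides (82.7%) or 1 side (82.6%) lay above those inside. The link was thus small at like height in the same-number pairs.

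The summit of a BRG1 peak most often lay inside an H3K27ac peak rather than between a pair of them. The share inside was 46.3%, 36.0%, 49.3% and 44.2% in the pairs 1-1, 1-2, 2-1 and 2-2, with a mean of 44.0% ± 5.68. A further 10.9% ± 1.28 of summits lay in no H3K27ac peak but had one within 1 kb on each side, that is, they lay in a gap between acetylated intervals. This share was 11.6%, 9.49%, 12.3% and 10.2% in the 4 pairs. Summits inside a peak thus outnumbered those in such a gap in all 4 pairs.

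The other summits lay at the edge of the mapped acetylation or away from it. An H3K27ac peak within 1 kb on 1 side only was found for 24.8%, 27.7%, 24.4% and 26.1% of summits. No H3K27ac peak within 1 kb was found for 17.3%, 26.8%, 14.1% and 19.5%. The last class was larger against the shorter H3K27ac list than against the longer one for both BRG1 libraries.

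**Figure D1:**
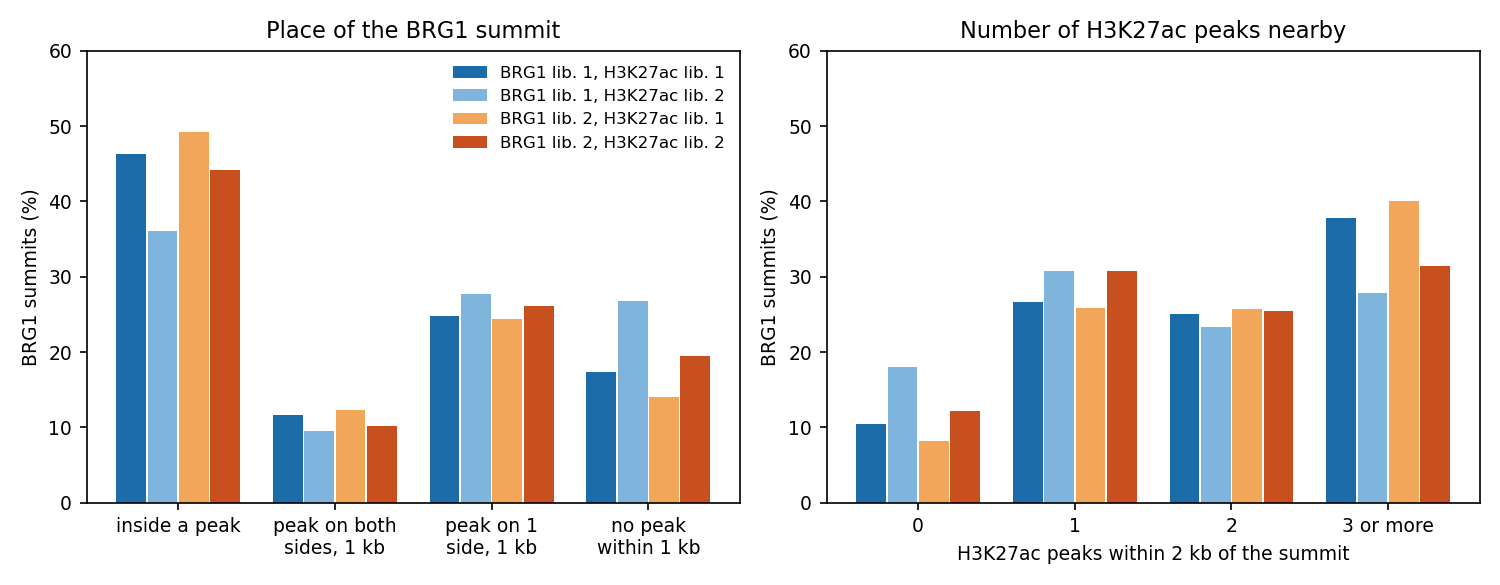
Left, share of BRG1 summits (%) by their place relative to H3K27ac peaks; right, share of BRG1 summits (%) by the number of H3K27ac peaks within 2 kb. Each bar is 1 of the 4 library pairs and has no error bar; the bars for a summit inside a peak (36.0% to 49.3%) stand above those for a peak on both sides (9.49% to 12.3%) in each pair.

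BRG1 and H3K27ac summits were close but seldom within 50 bp of each other. The median distance from a BRG1 summit to the nearest H3K27ac summit was 319, 455, 298 and 329 bp in the pairs 1-1, 1-2, 2-1 and 2-2, a mean of 350 ± 71.0 bp. Where the peaks overlapped, the median was 136 to 143 bp, nearly alike in the 4 pairs. Where they did not, it was 967 to 1357 bp. Averaged over the pairs, 12.5% of BRG1 summits had an H3K27ac summit within 50 bp, 22.5% within 100 bp, 42.3% within 250 bp, 76.4% within 1 kb and 94.5% within 10 kb. The tail beyond 10 kb was thus small in all pairs, with 91.4% to 96.6% of summits inside that distance.

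H3K27ac lay at nearly like distances to the left and right of BRG1. The median distance to the next H3K27ac summit was 835 to 1311 bp on the left and 834 to 1351 bp on the right, by genome coordinate. For summits outside any H3K27ac peak, the next peak edge lay a median of 1105 to 2238 bp to the left and 1073 to 2255 bp to the right. Within the pairs 1-1, 1-2, 2-1 and 2-2, the left and right summit medians were 917 and 931, 1311 and 1351, 835 and 834, and 1000 and 1045 bp. Direction relative to a gene was not analysed here.

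H3K27ac peak coverage was highest at the BRG1 summit itself. The share of summits covered fell from 46.3% at the summit to 35.4% and 35.5% at 200 bp on either side, 27.42% and 26.99% at 500 bp, and 17.3% and 16.7% at 2 kb in the pair 1-1. In the pair 2-2 it fell from 44.2% to 33.0% and 33.2% at 200 bp and to 13.8% and 13.5% at 2 kb. At 50 bp from the summit it was 45.2% on both sides in the pair 1-1, below the value at the summit. The profile had no dip at its centre in any of the 4 pairs.

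H3K27ac summits showed the same centred pattern. In the pair 1-1, 100 BRG1 summits had 11.7 H3K27ac summits in the first 100 bp on each side, 7.80 and 7.52 in the next 100 bp, and 5.28 and 5.46 between 300 and 400 bp. Across the pairs the first 100 bp held 9.64 to 12.2 per 100 BRG1 summits. From 300 bp outward the number fell slowly, in the pair 2-2 from 5.31 on the left and 5.08 on the right to 4.55 and 4.15 in the last 100 bp before 1 kb. Seen from H3K27ac, BRG1 peaks covered 20.6% and 15.2% of the H3K27ac library 1 summits for BRG1 libraries 1 and 2, and 26.9% and 22.8% of the H3K27ac library 2 summits. At 2 kb to the left of the H3K27ac summits these values were 8.19%, 5.91%, 10.2% and 7.46%.

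**Figure D2:**
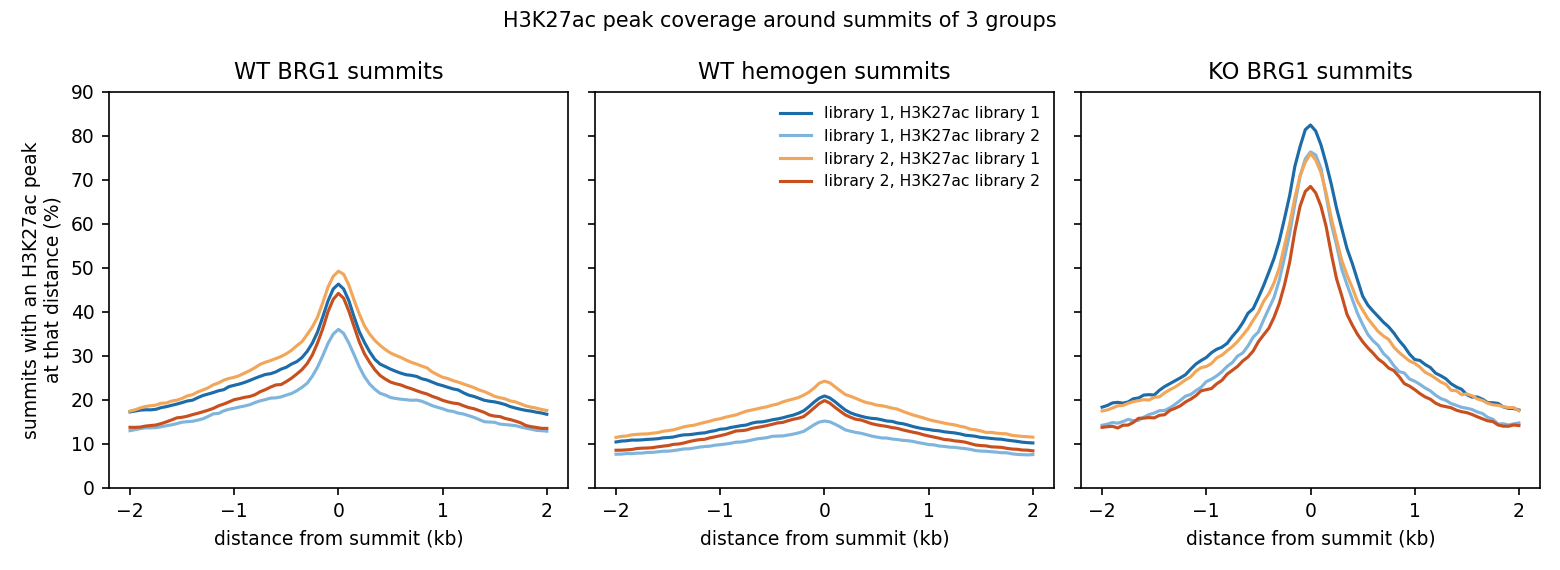
Share of summits (%) with an H3K27ac peak at each distance from the summit (kb, steps of 50 bp) for WT BRG1, WT hemogen and KO BRG1 summits. Each line is 1 pair of a library with an H3K27ac library; every line is highest at or next to the summit, with 36.0% to 49.3% for WT BRG1, 15.2% to 24.3% for hemogen and 68.5% to 82.5% for KO BRG1 at the summit itself.

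Summits placed inside an H3K27ac peak avoided its ends only slightly. With each H3K27ac peak divided into 5 equal segments, the middle segment held 22.7% to 23.3% of the BRG1 summits inside a peak, and each outer segment 16.1% to 17.7%. Many BRG1 summits also had an H3K27ac summit within 1 kb on both sides, whether or not they lay in a peak: 25.6%, 19.1%, 27.7% and 22.5% in the 4 pairs. The bracketing H3K27ac summits were a median of 818, 818, 818 and 800 bp apart. All neighbouring H3K27ac summits up to 2 kb apart had medians of 881 and 864 bp in libraries 1 and 2. These values are a description, since a bracket of at most 1 kb on each side limits the spacing by construction. Along the bracket, BRG1 summits were spread almost evenly, with 17.9% to 22.2% in each of 5 equal segments.

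A BRG1 summit had about 2 H3K27ac peaks within 2 kb. The mean number was 2.22, 1.83, 2.32 and 2.01 in the pairs 1-1, 1-2, 2-1 and 2-2, or 2.10 ± 0.217, and the median was 2 in each pair. No peak within 2 kb was found for 10.5%, 18.0%, 8.25% and 12.2% of summits. At the other end, 37.8%, 27.9%, 40.1% and 31.5% had 3 or more, and 1.96% to 2.79% had 6 or more, up to 9. Clusters of H3K27ac peaks around BRG1 were therefore common, and BRG1 summits with none were a minority in every pair.

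The tallest BRG1 peaks nearly always overlapped an H3K27ac peak, and the lowest did so least often. With each BRG1 list divided into 10 classes of equal size (deciles) by recovered summit height, overlap with H3K27ac rose at every step in all 4 pairs. It went from 29.5% in the lowest decile to 93.9% in the highest in the pair 1-1 and from 13.4% to 91.3% in the pair 1-2. In the pairs 2-1 and 2-2 it went from 27.1% to 94.6% and from 28.4% to 90.6%. The distance to the nearest H3K27ac summit fell along with it, from medians of 855, 1601, 813.5 and 908 bp in the lowest decile to 170, 180, 172 and 174 bp in the highest. The number of H3K27ac peaks within 2 kb rose from 1.46, 0.979, 1.54 and 1.29 to 2.67, 2.41, 2.74 and 2.49.

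The authors' fold enrichment, which divides the height by the local background, did not order the peaks in the same way. By fold, overlap was 52.1% in the lowest decile of the pair 1-1, 49.8% in decile 3 and 87.2% in the highest. In the pair 2-1 it fell from 68.5% in the lowest decile to 56.5% in decile 5 and then rose to 80.2%. The lowest and highest deciles were 46.4% and 77.8% in the pair 1-2 and 52.2% and 79.6% in the pair 2-2. The top deciles overlapped H3K27ac most often by both measures, and of these 2 measures only height gave a rise at every step. By BRG1 peak width, overlap also rose at every step in each pair. It went from 35.9% in the narrowest decile to 97.5% in the widest in the pair 1-1. In the pairs 1-2, 2-1 and 2-2 it went from 24.9% to 93.5%, 42.4% to 96.9% and 36.0% to 95.7%. A wide peak meets an overlap of 1 bp more easily, and the parts of height and width were not tested apart. Height enters with the background still in it, so tall peaks include positions where the background is also high.

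**Figure D3:**
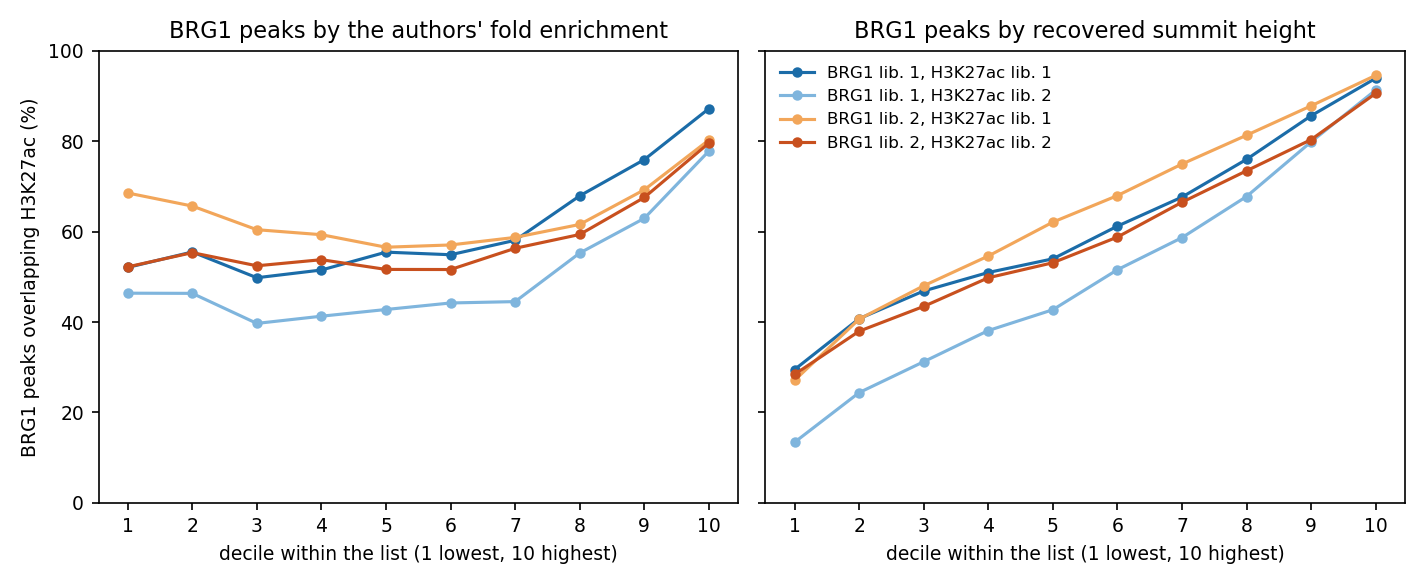
Share of BRG1 peaks overlapping H3K27ac (%) in deciles of each BRG1 list, ordered by the authors' fold enrichment (left) and by recovered summit height (right). Each line is 1 library pair; by height the lines climb from between 13.4% and 29.5% to between 90.6% and 94.6%, while by fold they are flat or fall over the lower deciles.

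Seen from the acetylated side, BRG1 lay more often at the tall and wide H3K27ac peaks. The share of H3K27ac peaks overlapping BRG1 went from 4.83% in the lowest decile of H3K27ac height to 70.9% in the highest in the pair 1-1. In the other pairs it went from 5.26% to 77.8% (1-2), from 2.03% to 64.8% (2-1) and from 5.69% to 71.3% (2-2). By H3K27ac fold the rise was weaker and not steady. In the pair 1-1 the share was 21.5% in the lowest decile, 16.1% in decile 4 and 55.6% in the highest. In the pair 1-2 it was 35.1%, then 25.6% in decile 6 and 53.7% in the highest. Median H3K27ac background was 4.25 to 4.49 with BRG1 and 3.33 to 3.55 without, so height enters with the background still in it. H3K27ac library 1 peaks with BRG1 library 1 had a median width of 417 bp, and those without it 256 bp. Over the 4 pairs the widths were 376 to 446 bp with BRG1 and 256 to 260 bp without. Part of this difference follows by construction, since a wide peak meets an overlap of 1 bp more easily.

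H3K27ac peaks with BRG1 were also found again more often in the other H3K27ac library. Of the H3K27ac library 1 peaks, 71.0% with BRG1 library 1 and 29.8% without it overlapped a peak of H3K27ac library 2. For BRG1 library 2 these shares were 78.5% and 30.8%. Of the H3K27ac library 2 peaks, 87.2% with and 52.1% without BRG1 library 1 were found in H3K27ac library 1, and 85.6% and 54.8% with and without BRG1 library 2. Averaged over deciles of H3K27ac height, the pairs of shares were 53.5% and 37.2%, 59.3% and 37.3%, 77.8% and 59.5%, and 74.3% and 61.0%. The difference was thus smaller at like height, and kept its direction in 4 of 4 pairs. It was larger in the crossed pairs, where the BRG1 list has the number of the other H3K27ac library, than in the same-number pairs. Width was not held alike, and a wide peak meets an overlap of 1 bp more easily.

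The ranks of BRG1 and H3K27ac fold at shared positions agreed weakly, and more in same-number than in crossed pairs. Each overlapping BRG1 peak was set beside the overlapping H3K27ac peak of highest fold, and Spearman's coefficient was taken across peaks as a description. It was 0.26 over 16015 peaks in the pair 1-1 and 0.25 over 12271 in the pair 2-2. In the crossed pairs it was 0.11 over 13195 peaks (1-2) and 0.077 over 13488 (2-1). The mean over the pairs was 0.17 ± 0.095. The coefficient was 0.24 between the 2 BRG1 libraries and 0.15 between the 2 H3K27ac libraries. BRG1 fold therefore ranked with the H3K27ac fold of its own number about as closely as with the fold of the other BRG1 library.

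The 2 recovered parts of the fold, height and background, were also ranked, each by itself. By recovered height, the coefficient was 0.45, 0.41, 0.40 and 0.44 in the pairs 1-1, 1-2, 2-1 and 2-2, with 11702 to 14725 peaks, so that same-number and crossed pairs lay close together. Between libraries of 1 kind it was 0.66 for BRG1 and 0.61 for H3K27ac. By recovered background, the coefficient was 0.59 and 0.58 in the same-number pairs but 0.19 and 0.21 in the crossed pairs. It was 0.26 between the BRG1 libraries and 0.30 between the H3K27ac libraries. Across all overlapping peaks, the difference between same-number and crossed pairs was thus much larger in the background than in the height.

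Where the BRG1 and H3K27ac summits lay within 20 bp of each other, the backgrounds of same-number lists were nearly proportional. The coefficient was 0.95 over 1367 peaks in the pair 1-1 and 0.94 over 1145 in the pair 2-2, and 0.25 over 1088 and 0.28 over 1138 in the crossed pairs. In the same-number pairs, 68.5% and 35.6% of these peaks had a ratio of backgrounds within 1% of the median ratio, against 2.298% and 2.988% in the crossed pairs. Height at the same peaks gave 0.56 and 0.52 against 0.45 and 0.46, so a smaller difference in the same direction was found in height as well. Hemogen lists showed the same split with BRG1, with a background coefficient of 0.94 and 0.95 for the same number and 0.30 and 0.26 for different numbers. Peaks of 1 pair share libraries, depth and local background, and the control behind each list is not stated in the labels.

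**Figure D4:**
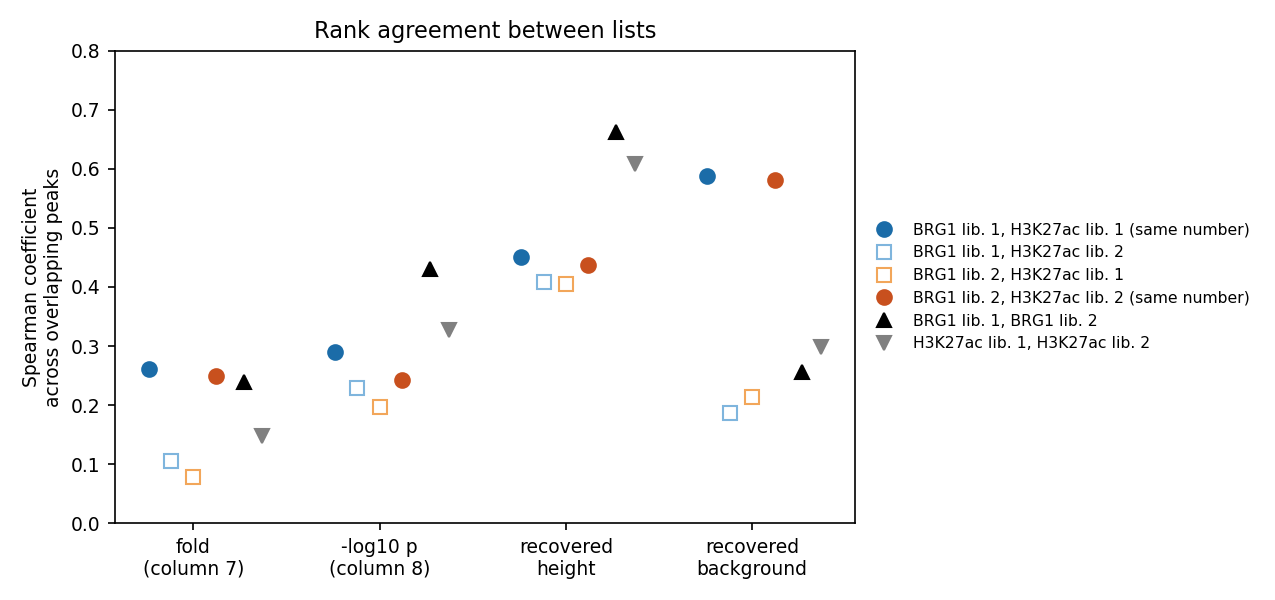
Spearman coefficient across overlapping peaks for 4 measures: the authors' fold, the authors' −log10 p, recovered height and recovered background. Filled circles are same-number BRG1 and H3K27ac pairs, open squares crossed pairs and triangles the 2 libraries of 1 kind; filled and open symbols are far apart for background (0.59 and 0.58 against 0.19 and 0.21) and close for height (0.45 and 0.44 against 0.41 and 0.40).

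Single regions show these arrangements. They were taken from the 15369 BRG1 library 1 peaks also found in library 2, in order of the lower of the 2 fold percentiles, and are given by position, 1-based, with no gene assigned. The build is not named in the sources; contig names and positions fit mm10. Of the 15369 peaks, 9053 (58.9%) overlapped both H3K27ac lists, 606 (3.94%) had their summit between H3K27ac peaks in both lists, and 546 (3.55%) had no H3K27ac peak within 2 kb in either list. The percentile chose the regions, so their high folds are a description.

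The strongest acetylated BRG1 region lay at chr18:34776817-34778222, with authors' BRG1 folds of 12.4 and 11.4 in libraries 1 and 2. Its H3K27ac peaks were 1362 and 1137 bp wide with folds of 9.02 and 8.53, and its BRG1 summit lay inside them, 466 and 460 bp from the nearest H3K27ac summits. The region at chr10:82762271-82764296 had BRG1 folds of 10.8 and 11.7 and H3K27ac folds of 5.70 and 8.29, with summits only 42 and 37 bp apart. That at chr13:91460985-91462822 had BRG1 folds of 11.1 and 9.90 within H3K27ac peaks of 1381 and 2285 bp. The other two lay at chr10:117844763-117846144 and chr6:134640882-134642050, with the summit also inside an H3K27ac peak in both lists. In these 5 regions strong BRG1 thus went with H3K27ac folds from 3.61 to 9.02, and all 5 overlapped a BRG1 peak of at least 1 KO library. Among all 15369 replicated peaks 31.8% did so, and among the 9053 acetylated in both lists 46.1%.

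The strongest BRG1 region far from mapped acetylation lay at chr4:87806005-87806916, with folds of 8.95 and 10.2. The nearest H3K27ac summit was 23816 bp away in library 1 and 10465 bp away in library 2, and the region overlapped no peak of the H3K27ac group list. It overlapped hemogen in both libraries and BRG1 in no KO list. The next, chr8:39010888-39012291, had folds of 6.92 and 8.42, with the nearest H3K27ac summits 5337 and 5171 bp away. A neighbour at chr8:39009934-39010452 matched the same peak of BRG1 library 2, so the pair is no independent evidence. The others were chr3:108257268-108258199 and chr5:110284913-110286635. These 4 regions, unlike the first, overlapped the H3K27ac group list, as did 220 (40.3%) of all 546.

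Among regions with the summit between H3K27ac peaks in both lists, the strongest lay at chr10:82858806-82859952, with BRG1 folds of 7.89 and 7.21. The H3K27ac peak edges were 266 bp to the left and 411 bp to the right in library 1, and 396 and 452 bp in library 2. At chr12:51843048-51845467, with folds of 7.09 and 7.49, the edges were 520 and 464 bp away in library 1 and 546 and 532 bp in library 2. Both edges of the gap thus lay 266 to 546 bp from the summit at these 2 regions, and the left edge at the first moved by more between the H3K27ac libraries than any edge at the second. The left edge moved further still at chr16:21357419-21359708, where it lay 1 bp from the summit in library 1 and 333 bp from it in library 2. The other two were chr15:103250313-103254310 and chr12:100955694-100957581.

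The 3 replicated library 1 peaks with most H3K27ac peaks within 2 kb, by the mean over both lists, lay on chromosomes 3 and 4. The BRG1 summit in chr3:102164916-102166169 had 8 H3K27ac peaks within 2 kb in both lists and lay in none of them. Its neighbour, chr3:102166347-102166619, had 8 and 7 and lay inside a peak 4 and 5 bp from the H3K27ac summits, although its BRG1 folds were low, at 3.29 and 3.14. The region at chr4:130295068-130297441 had 7 in both lists, with BRG1 folds of 8.64 and 7.45.

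WT BRG1 peaks overlapped H3K27ac more often than hemogen peaks did, by less when the lists of both factors had one length. Averaged over the 2 H3K27ac lists, the overlap was 55.5% and 60.9% for the BRG1 libraries and 31.7% and 37.3% for the hemogen libraries, whose lists held 53055 and 42866 peaks. The groups did not overlap, and the means of 58.2% ± 3.81 and 34.5% ± 3.96 (SD, n = 2 libraries each) differed by 23.7 percentage points. An exact two-sided permutation test over libraries gave p = 0.333, the smallest that 2 against 2 libraries allow. With the BRG1 and hemogen lists trimmed to their 21165 peaks of lowest p-value and the H3K27ac lists whole, the overlap was 54.2% to 64.7% for BRG1 and 47.1% to 55.7% for hemogen over the pairs, and the difference was 9.27 points. With the H3K27ac lists trimmed as well, the difference was 6.06 points, with 37.9% to 41.5% for BRG1 and 33.6% to 35.3% for hemogen. Trimming keeps the strongest peaks of each list, so strength changes with length.

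The summit patterns of the 2 factors differed in the same direction. An H3K27ac peak covered 20.9%, 15.2%, 24.3% and 19.9% of hemogen summits against the BRG1 values of 46.3%, 36.0%, 49.3% and 44.2%. Hemogen summits lay a median of 1205 ± 492 bp from the nearest H3K27ac summit and had 1.29 ± 0.206 H3K27ac peaks within 2 kb. In all 4 pairs both values lay outside the range of the BRG1 pairs. These lists were not trimmed to one length, and the 2 factors were compared with the same H3K27ac lists.

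BRG1 peaks of the KO livers overlapped WT H3K27ac still more often, on far shorter lists. The share, averaged over the H3K27ac lists, was 86.9% and 82.2% in KO libraries 1 and 2, which held 3205 and 5592 peaks. The mean of 84.5% ± 3.37 (SD, n = 2 libraries) was 26.4 points above the WT mean (exact two-sided permutation test, p = 0.333, the smallest possible). With the BRG1 lists trimmed to 3205 peaks of lowest p-value, the difference was -0.913 points. The trimmed WT lists then overlapped H3K27ac at 91.0%, 85.1%, 87.2% and 84.6% in the pairs 1-1, 1-2, 2-1 and 2-2, and the trimmed KO lists at 88.9%, 85.0%, 87.8% and 82.7%. At equal list length the KO and WT shares thus differed by less than the spread over the pairs. The series holds no H3K27ac library from KO liver, so the KO peaks were set against WT acetylation only.

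WT BRG1 peaks inside H3K27ac were the ones most often found in the KO. Of all WT BRG1 peaks, 20.5% in library 1 and 25.2% in library 2 overlapped a peak of either KO library. In the pair 1-1 this share was 33.0% for summits inside an H3K27ac peak, 15.8% for those with an H3K27ac peak on both sides, 9.93% with one on 1 side and 5.22% with none within 1 kb. In the pair 2-2 the shares were 40.04%, 23.7%, 13.9% and 7.48%. The order was the same in all 4 pairs.

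Height differed between these classes. The median recovered height was 23.8 for summits inside an H3K27ac peak and 17.6 for those with none within 1 kb in the pair 1-1, and 21.9 and 16.8 in the pair 2-2. Averaged over deciles of WT BRG1 height, the shares found in the KO from inside to none were 24.8%, 14.6%, 14.0% and 9.49% in the pair 1-1 and 32.4%, 21.4%, 17.9% and 12.1% in the pair 2-2. The step from inside a peak to a peak on both sides thus remained at like height, in the pairs 1-2 (25.9% and 17.5%) and 2-1 (30.5% and 19.2%) as well. Width was not held alike, and a wide peak meets an overlap of 1 bp more easily. The median BRG1 width inside, on both sides and with none was 507, 387 and 280 bp in the pair 1-1. In the pair 2-2 it was 463, 366 and 271 bp. The 4 pairs share the KO lists. The KO lists were shorter than the WT lists, and depth and genotype cannot be told apart with them.

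**Figure D5:**
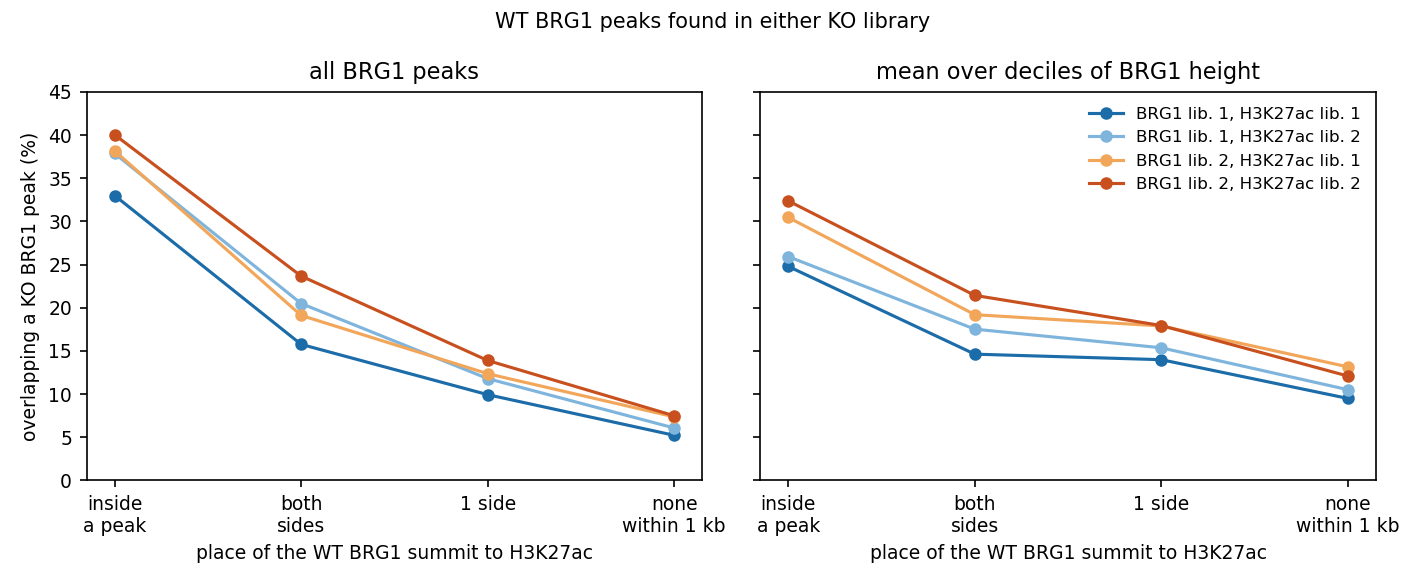
Share of WT BRG1 peaks (%) that overlapped a BRG1 peak of either KO library, by the place of the WT summit relative to WT H3K27ac peaks; left for all peaks, right averaged over deciles of WT BRG1 height. Each line is 1 library pair; all lines fall from inside a peak (33.0% to 40.04% left, 24.8% to 32.4% right) to no peak within 1 kb (5.22% to 7.48% left, 9.49% to 13.2% right).

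Hemogen was found at most BRG1 peaks whatever their acetylation. Both hemogen libraries overlapped 79.1% of the BRG1 library 1 peaks and 88.0% of the library 2 peaks. Summits inside an H3K27ac peak had shares of 81.4%, 84.7%, 89.4% and 89.3% in the pairs 1-1, 1-2, 2-1 and 2-2, and summits with none within 1 kb had 71.5%, 70.4%, 81.8% and 83.4%. Averaged over deciles of BRG1 height, the order turned: 74.8%, 74.95%, 85.8% and 85.8% inside against 80.1%, 78.8%, 88.0% and 88.1% with none. At like height, BRG1 peaks away from H3K27ac thus overlapped hemogen no less often than acetylated ones in any pair.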

How the data were processed

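Chromatin immunoprecipitation with sequencing was measured in WT and hemogen KO fetal liver at embryonic day 14.5. The submitters' processing notes list MACS2 2.2.7.1, Picard 2.21.4, SAMtools 1.9 and Bowtie2 2.3.5 without saying what each did. The labels' protocols describe fixation, sonication, precipitation and libraries made by tagmentation or a ligation kit, without saying which served each library. Not given in the sources used here are the build, the read filters, the read totals and the control behind each list.

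The authors deposited 1 peak list per library and 1 per group, with no header. Each deposited peak has a fold enrichment, that is a ratio of summit to local background, then a −log10 p-value and q-value, and a summit offset from its start. These are the authors' own values, used within a list. Whether a group list pools reads is not stated. The titles of the samples gave the group and replicate number.

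Peaks on the 19 autosomes and X were kept, which left out 1 and 2 BRG1 peaks and 1 and 3 H3K27ac peaks. Height and background were recovered on the reading that the fold is (height + 1)/(background + 1) and the p-value the Poisson probability of more fragments than the height. Heights were whole multiples of 1 factor per list within 0.01 for 100% of peaks, and 94.3% to 98.7% of peaks had 1 solution; peaks with more were left out of height and background ranks. This is an assumption about the caller. Shares over height deciles are plain means of the decile shares, leaving out deciles with under 20 peaks of a class.

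Overlaps, distances and the recovery were tested on simulated data. Only libraries were tested, by exact permutation; values across peaks are descriptions. The regions named are the 5 strongest of each of 3 kinds and the 3 with most H3K27ac peaks, by the rule given in the text. The regions compared, the measures and the lists were chosen with earlier results of these data known. The use of recovered height and background, crossed pairs alone, BRG1 peaks found in both libraries, the trimming to the shortest KO list or of the BRG1 and hemogen lists alone, and the share of hemogen and BRG1 summits inside peaks were alternatives chosen after seeing the data. A mouse genome and annotation were not used here, so gene names, marker lists and sequences are not given. The work used Matplotlib 3.10.9, SciPy 1.17.1, pandas 2.3.3, NumPy 2.4.6 and Python 3.11.15.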

Additional observations from a re-analysis of the deposited data

How the results depend on the processing

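Overlap, summit distance, the share between and the number within 2 kb moved with the peaks kept in the lists. With every list trimmed to 21165 peaks, BRG1 overlap was 40.3%, H3K27ac overlap 39.8%, the median summit distance 837 bp, the share of summits between H3K27ac peaks 4.55% and the number within 2 kb 1.18. At a −log10 q of at least 5 the BRG1 overlap was 50.1%, the distance 617 bp, the share between 4.96% and the number 1.31. On the authors' group lists these were 70.5%, 236 bp, 13.4% and 2.96, and the H3K27ac overlap was 17.2%. Requiring 50% of the shorter interval gave a BRG1 overlap of 51.3%, and only BRG1 peaks found in both libraries gave 67.5%. Joining H3K27ac peaks less than 200 bp apart gave a distance of 444 bp and a number of 1.71. Flanks of 500 bp and 2 kb gave shares between of 5.41% and 17.1%, and windows of 1 and 5 kb gave numbers of 1.39 and 3.66, which follows from the width used. Ranks by height and background gave a mean Spearman coefficient of 0.42 and 0.39. The difference between KO and WT BRG1 turned to -0.913 points with lists trimmed to the shortest KO list. Except where construction fixes the move, the cause was not tested.

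With 1 library left out, BRG1 overlap was 54.0% to 62.3%, H3K27ac overlap 22.4% to 30.3%, the distance 308.5 to 392 bp, the share between 9.85% to 11.95%, the number 1.92 to 2.27 and the mean Spearman coefficient 0.16 to 0.18. The differences were 20.9 to 26.5 points for BRG1 against hemogen and 23.7 to 29.1 points for KO against WT. With the replicate block, which uses same-number pairs only, the values were 59.4%, 26.7%, 324 bp, 10.9%, 2.12, a Spearman coefficient of 0.25, and 24.6 points for both differences. The labels give the numbers no meaning beyond a name; crossed pairs alone gave a Spearman coefficient of 0.092 and a BRG1 overlap of 56.9%. The depth of each library is unknown in reads, so no detection limit is given for H3K27ac at BRG1 peaks.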

Other observations

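BRG1 peaks on chromosome X overlapped H3K27ac less often than those on the autosomes. In the pair 1-1 the share was 39.3% (158 of 402 peaks) on X and 61.2% on the autosomes, and in the pair 1-2 it was 26.1% (105 of 402) and 50.5%. In the pairs 2-1 and 2-2 it was 35.9% (104 of 290) and 32.8% (95 of 290), against 64.1% and 58.3%. The lowest autosome in each pair was chromosome 13, at 53.1%, 40.4%, 55.7% and 47.6%, and the highest was chromosome 11, at 66.6%, 56.3%, 70.1% and 63.5%. Chromosome X thus lay below every autosome in all 4 pairs. It held 1.53% and 1.37% of the BRG1 peaks and 0.587% and 0.518% of the H3K27ac peaks.

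Height and background were also lower on X. The median BRG1 height was 16.7 and 14.6 on X in libraries 1 and 2, against 21.1 and 19.7 on the autosomes, and the median background 3 and 2.46 against 4.43 and 4. Averaged over the 6, 6, 4 and 4 height deciles with at least 20 peaks on X, the shares were 42.1%, 29.0%, 31.9% and 31.9% on X and 47.3%, 33.6%, 42.8% and 40.1% on the autosomes. The difference was smaller at like height in all 4 pairs and kept its direction. Hemogen peaks gave 22.2%, 14.4%, 22% and 16.5% on X and 35.5%, 28.3%, 40.5% and 34.6% on the autosomes. The part of height and background in the difference was not tested further, and the sex of the embryos is not given in the labels.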
